A study of Rattus norvegicus with 9 samples.

Results

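The genes described here are nuclear genes for the mitochondrial respiratory chain and the mitochondrial ribosome. They were measured on 9 one-colour arrays of rat oligodendrocyte progenitors, the glial cells that give rise to myelin-forming oligodendrocytes. They were taken by symbol, as the subunits of complexes I to IV and of ATP synthase, cytochrome c, the mitochondrial ribosomal proteins, the CISD proteins and Opa3. Of 35129 probes, 173 carried such a symbol. Of these, 6 carried several symbols, naming Atp5me, Cox4i2, Cox5b, Ndufa10 and Ndufs6 beside another gene, and were left out. The other 167 probes stand for 139 genes out of 12167 named genes in the series. Mrpl32 and Mrpl52 had no value on any array, which leaves 137 genes: 74 of the respiratory chain, 59 of the mitoribosome, and Cisd1, Cisd2, Cisd3 and Opa3. Within the chain there were 28 complex I subunits, 6 complex I assembly factors (the symbols that begin with Ndufaf), 4 subunits of complex II, 8 of complex III, 13 of complex IV, 14 of ATP synthase, and cytochrome c itself. Of the mitoribosomal genes measured, 36 belong to the large and 23 to the small subunit.

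Progenitors were isolated from newborn rats, cultured and sorted by surface antigens into 3 populations. O4 cells carried the O4 antigen, a sulfatide epitope of later stages, and were negative for NG2. NG2/A2B5 cells carried the proteoglycan NG2 and the ganglioside epitope A2B5, and NG2 cells carried NG2 alone. Each population has 3 arrays, numbered I, II and III, and no treatment or genotype sets the groups apart. The series text speaks of 3 cultures, but the labels do not say that a numeral is a culture, so every p-value here covers only how far these arrays spread, which may be technical. Sources used here name no strain. RNA from a small input was amplified in 2 rounds before labelling.

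The respiratory chain passes electrons from NADH and succinate through complexes I, II, III and IV to oxygen and pumps protons across the inner mitochondrial membrane, and ATP synthase uses that gradient to make ATP. Most subunits are encoded in the nucleus. The mitochondrial genome encodes a small core set, and the mitoribosome, built from nuclear-encoded proteins and mitochondrial RNA, translates it. Maturing oligodendrocytes are known for a high energy demand while they build myelin. None of the 13 listed genes of the mitochondrial genome was measured here, so the values cover the nuclear part only.

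Promoter sequences are shown for Ndufaf4, Cycs and Mrps18b because these were the members called as different in any of the 6 comparisons below. The stretches run from 180 bases before to 10 bases after the annotated start, 5′ to 3′ on the gene's strand. They are RefSeq sequences of assembly GRCr8 and lie at chr5:43401615-43401804 (plus strand), chr4:80984758-80984947 (minus strand) and chr20:2842826-2843015 (plus strand). Capitals mark matches to 3 motifs tied by textbook knowledge to mitochondrial genes: the core of the NRF1 site (the capitals shown for Ndufaf4, which read the same on both strands), an ETS motif read by GABP (CCGGAAG, or CTTCCGG on the other strand) and a YY1 motif (AAGATGGCG, or CGCCATCTT).
Ndufaf4: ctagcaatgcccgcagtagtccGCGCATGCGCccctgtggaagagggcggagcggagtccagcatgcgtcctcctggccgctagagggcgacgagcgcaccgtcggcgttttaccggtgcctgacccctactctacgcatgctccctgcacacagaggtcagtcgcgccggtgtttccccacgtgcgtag
Cycs: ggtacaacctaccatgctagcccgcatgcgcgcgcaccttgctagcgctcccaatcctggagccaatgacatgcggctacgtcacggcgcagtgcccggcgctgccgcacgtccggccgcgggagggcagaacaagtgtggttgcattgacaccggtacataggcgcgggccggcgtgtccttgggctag
Mrps18b: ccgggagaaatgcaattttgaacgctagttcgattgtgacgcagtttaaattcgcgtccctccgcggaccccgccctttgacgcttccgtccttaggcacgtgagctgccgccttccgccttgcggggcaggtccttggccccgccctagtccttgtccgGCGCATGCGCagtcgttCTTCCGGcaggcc
The NRF1 core of Ndufaf4 begins at position -158 and that of Mrps18b at -20, where an ETS motif also begins at -3. The window of Cycs holds none of these exact letters.

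Promoter windows of 300 bases were at hand for 121 of the 139 members. Of these, 9 held the NRF1 core (7.44%), against 0.932% of all 27457 windows and 1.58% of the 10066 windows of genes on the array. These 9 were Atp5mc2, Atp5po, Cisd1, Mrpl17, Mrpl32, Mrpl44, Mrps18b, Ndufaf4 and Ndufaf5. The ETS motif was in 34 members (28.1%), against 9.22% of all windows and 15.0% of windows of genes on the array. The YY1 motif was in 17 members (14.0%), against 1.93% and 3.09%. Both classes held some motif at like shares, 27 of 65 respiratory chain windows (41.5%) and 25 of 52 mitoribosome windows (48.1%). Some motif was in 11.5% of all windows and in 18.5% of windows of genes on the array. A match describes letters only, and binding was not measured.

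Of the 137 genes, 130 read at or over the 25th percentile of all probes on every array and 125 over the array median. The exceptions included Ndufa13 and Mrps2, along with the muscle and testis isoforms Cox8b and Cox8c, whose log2 intensities lay between -0.41 and -5.55. Ndufa13, a complex I subunit, read at or below 0 on the array of NG2/A2B5 numeral III and was set there to the smallest positive value of that array. Differences of these low genes carry little information. Over the 9 arrays, the range of a gene spanned a median of 0.71 on the log2 scale in the respiratory chain and 0.72 in the mitoribosome, against 1.01 over all genes and 0.79 over the 7160 genes that read over the array median everywhere.

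Single arrays differed in the level of the whole module. Relative to each gene's own mean over the 9 arrays, the median member stood 0.24 higher on the log2 scale on the array of NG2 numeral II, where the median of all genes stood 0.15 higher. There, 116 of 137 members were above their own mean (84.7%), against 65.2% of all genes. On the array of NG2 numeral III the median member stood at -0.19 and on that of NG2/A2B5 numeral III at -0.11, with 30 of 137 (21.9%) and 29 of 137 (21.2%) above their own mean. All genes had medians of -0.0405 and 0.0042 on these arrays, with 45.6% and 50.6% above their own mean. Of 134 members with a value everywhere, 56 were highest on the array of NG2 numeral II (41.8%, against 22.3% of all genes) and 43 were lowest on that of NG2 numeral III (32.1%, against 16.7%). The respiratory chain and the mitoribosome stood at 0.24 and 0.24 on the array of NG2 numeral II and at -0.14 and -0.22 on that of NG2 numeral III. They differed elsewhere: on the array of O4 numeral III they stood at 0.15 and 0.04, and on that of NG2/A2B5 numeral II 28.4% and 50.8% of their members were above their own mean. All genes had a median of 0.05 on the former array, and 56.3% were above their own mean on the latter. The 54 measured cytosolic ribosomal protein genes, which build the other ribosome of the cell, stood at 0.29 and -0.15 on the arrays of NG2 numerals II and III.

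**Figure D1:**
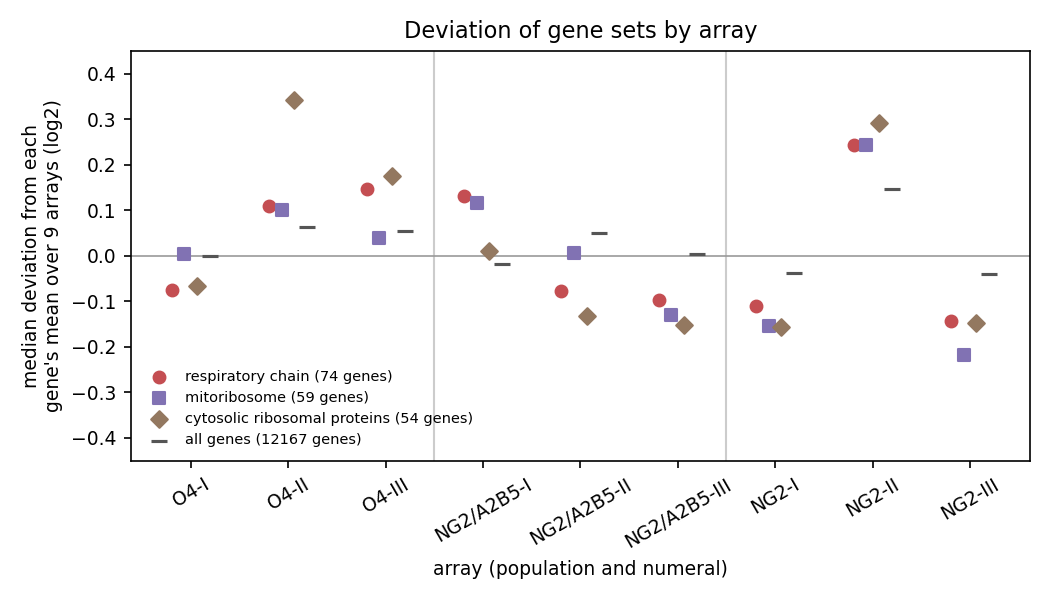
Each point is the median, over the genes of a set, of the log2 deviation from the gene's mean over 9 arrays, plotted for every array. The respiratory chain and mitoribosome points are highest for NG2-II (0.24 and 0.24) and lowest for NG2-III (-0.14 and -0.22).

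Each population was first set against the others, the comparison named in the series text. No member differed between populations at an adjusted p under 0.05 (limma, Benjamini-Hochberg over all genes). Between O4 and NG2 cells, 88 members were nominally higher and 49 lower in O4, with a median difference of 0.09 on the log2 scale, against 0.02 over all genes. The lowest adjusted p of a member was 0.566 (limma), and 10 members had an unadjusted p under 0.05 (7.30%, against 973 of 12165 genes in all). In this comparison 0% of all genes were called higher and 0.00822% lower. All 3 O4 arrays lay above all 3 NG2 arrays for 11 members (7.50% of all genes did so) and below for 3 (6.55% of all genes). Under quantile normalization 77 members were higher and 60 lower in O4 (median 0.05, against 0.01 over all genes).

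The class median of O4 against NG2 turned with the numeral, and so did the median of all genes. Members were mostly higher in O4 within numeral I (88 of 135, median 0.09) and III (119 of 136, median 0.29) but lower within II (90 of 137, median -0.14). Over all genes the medians within I, III and II were 0.05, 0.09 and -0.09. Over the 7160 genes above the array median on every array, the median within II was -0.14, like that of the members. Without the array of NG2 numeral II, 116 of 137 members were higher in O4 with a median of 0.22, against 0.07 over all genes. Without that of NG2 numeral III, 65 were higher and 72 lower.

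Opa3, a mitochondrial membrane protein mutated in a form of optic atrophy, had the smallest unadjusted p of the members between O4 and NG2. Its log2 intensity was 2.75, 2.64 and 2.27 in O4, 2.31, 2.84 and 2.03 in NG2/A2B5, and 1.62, 1.70 and 1.53 in NG2 (numerals I, II and III). The NG2 arrays lay below all 6 others. The difference of O4 over NG2 was 0.94 (95% interval 0.40 to 1.48, 1.92-fold) with an adjusted p of 0.566, and that of NG2/A2B5 over NG2 was 0.78 (0.24 to 1.32) with an adjusted p of 0.970 (limma). With the numeral as a block the adjusted p for O4 over NG2 was 0.292, and 0.0241 when the block was joined with trended, robust variances, which was added with the values in view. That joined setting called 78 genes of the whole series higher in O4 and 51 lower.

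Mrpl28, a large-subunit protein, read 6.58, 6.67 and 6.87 in O4 and 5.79, 6.38 and 5.81 in NG2 on the log2 scale. These arrays did not overlap, and the difference was 0.72 (95% interval 0.24 to 1.19; adjusted p = 0.566, limma; 0.0448 with the block and the trended, robust variances). Ndufs3, a core subunit of complex I, read 5.36, 5.50 and 5.61 in O4 against 5.02, 5.20 and 4.92 in NG2. Its difference of 0.44 had an adjusted p of 0.577 (limma). Cox6a1, the widely expressed isoform of a complex IV subunit, stood at 8.83, 8.79 and 8.96 in O4 against 8.16, 8.63 and 8.41 in NG2, a difference of 0.46 (adjusted p = 0.588, limma).

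The opposite order appeared in Mrpl3 and in Ndufs1, the largest complex I subunit. Ndufs1 read 6.34, 6.29 and 6.29 in O4 against 6.55, 6.82 and 6.77 in NG2, a difference of -0.40 on the log2 scale (adjusted p = 0.603, limma). Mrpl3 read 2.93, 3.17 and 3.29 in O4 against 3.82, 3.56 and 3.35 in NG2, a difference of -0.45 (adjusted p = 0.598, limma). Ndufs3 and Ndufs1, both of complex I and named for small p-values in either direction, stood on opposite sides. Neither difference passed the test (limma). Further members with separate arrays and an unadjusted p under 0.05 were Mrpl19, Mrpl54, Uqcr11 of complex III and Ndufaf8, higher in O4 by 0.50, 0.59, 0.35 and 0.69.

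**Figure D2:**
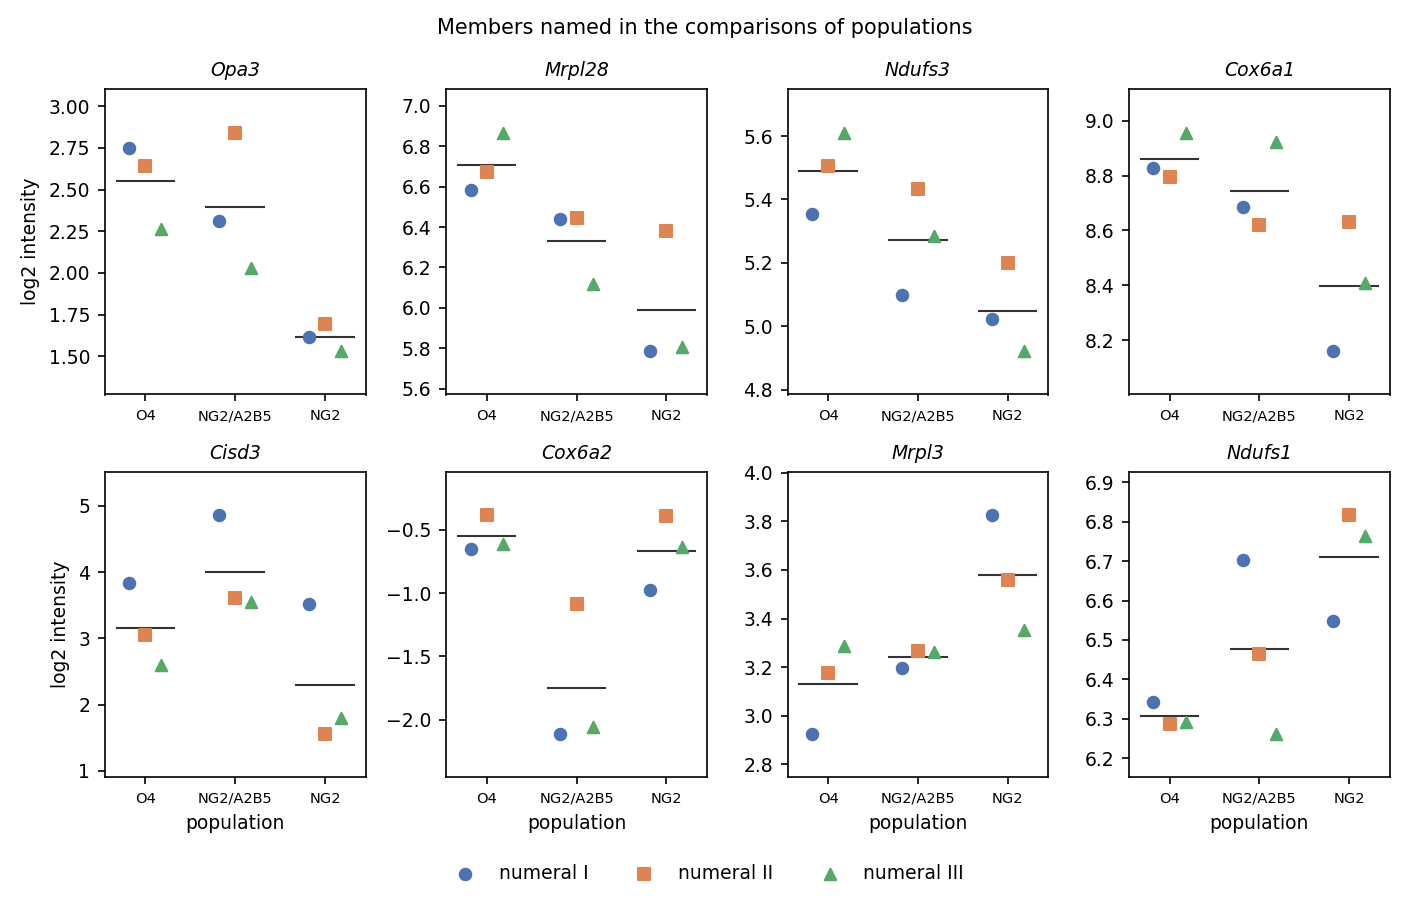
Log2 intensity of 8 members by population, with 1 point for each array, the numeral as symbol, and a line at the mean of the 3 arrays. Opa3, Mrpl28, Ndufs3 and Cox6a1 lie higher in O4 than in NG2 on every array, and Mrpl3 and Ndufs1 lower.

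Between O4 and NG2/A2B5 cells, 101 members were nominally higher and 36 lower in O4 (median 0.08, against 0.02 over all genes). A single member, Cox6a2, had an unadjusted p under 0.05 (0.730%, against 3.28% of all genes), and 0% of all genes were called higher and 0.00822% lower. Arrays did not overlap for 10 members higher in O4 (7.30%, against 5.35% of all genes) and 2 lower (1.46%, against 3.43%). The split again depended on the numeral, with 37 of 137 higher in O4 within I, 100 of 137 within II and 119 of 136 within III. The member medians within I, II and III were -0.15, 0.17 and 0.22. All genes had medians of 0.0213, 0.0008 and 0.0451 there. Under quantile normalization 81 members were higher and 56 lower in O4 (median 0.03, against 0.01 over all genes). Cox6a2, the heart and muscle isoform of the subunit above, read -0.65, -0.39 and -0.61 in O4, -2.11, -1.09 and -2.06 in NG2/A2B5 and -0.98, -0.39 and -0.64 in NG2. The probe read under the array median on every array, and in NG2/A2B5 numerals I and III close to the 25th percentile, so sizes are uncertain. NG2/A2B5 lay below both other populations, by 1.20 against O4 (95% interval 0.51 to 1.89; adjusted p = 0.9997, limma) and by 1.08 against NG2 (interval of the difference NG2/A2B5 minus NG2, -1.78 to -0.39; adjusted p = 0.970, limma).

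Between NG2/A2B5 and NG2 cells, 67 members were nominally higher and 70 lower (median -0.01, as over all genes at -0.01). This held opposite shifts by numeral, with 108 of 135 higher in NG2/A2B5 within I (median 0.26), 116 of 137 lower within II (median -0.29) and 80 of 137 higher within III. All genes turned the same way, with smaller medians of 0.03 and -0.09 within I and II. Within III the median was 0.04 for the members and 0.04 over all genes. Without the array of NG2 numeral II, 108 of 137 were higher (median 0.11, against 0.05 over all genes). Of the members, 3 had an unadjusted p under 0.05 (2.19%, against 4.48% of all genes), and 0% of all genes were called in either direction. Without overlap, 3 members were higher (2.19%, against 5.20% of all genes) and 5 lower (3.65%, against 5.05%). With an unadjusted p under 0.05, besides Opa3 and Cox6a2, was Cisd3, an iron-sulfur protein of the mitochondrial matrix. Cisd3 read 4.85, 3.61 and 3.54 in NG2/A2B5, 3.83, 3.06 and 2.60 in O4, and 3.52, 1.56 and 1.81 in NG2. Its difference of 1.70 over NG2 (95% interval 0.29 to 3.12, 3.26-fold) had an adjusted p of 0.979 (limma). With the block alone this was 0.399, and with the block and the trended, robust variances 0.000374. The latter setting called 67 genes of the whole series higher in NG2/A2B5 than in NG2 and 28 lower. Within each numeral the order of Cisd3 was NG2/A2B5, O4, NG2. The other 2 iron-sulfur relatives did not follow this order. Cisd1 read 8.11, 8.41 and 8.08 in O4, above 7.77, 8.01 and 7.87 in NG2/A2B5 (difference 0.32; adjusted p = 0.9997, limma), and overlapped with NG2 in both. Cisd2 ranged from 2.92 to 3.98, with all 3 populations overlapping.

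Among other isoforms of complex IV, the ubiquitous isoforms Cox4i1, Cox7a2, Cox7a2l and Cox8a overlapped between all 3 populations, with ranges of 3.05 to 4.12, 6.52 to 6.89, 5.56 to 6.31 and 6.46 to 7.10. Cox6b2, an isoform best known from testis, read 5.18, 4.34 and 4.82 in NG2/A2B5 against 4.22, 3.28 and 4.30 in NG2, without overlap (difference 0.84; adjusted p = 0.9999, limma; 0.0114 with the block and the trended, robust variances).

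The numerals were then compared, each with 1 array of every population and with population as a term of the model. Between II and I, 104 members were nominally higher and 33 lower in II, with a median of 0.12 on the log2 scale against 0.10 over all genes. The populations went different ways: the median member stood 0.15 higher in O4 (0.06 over all genes) and 0.38 higher in NG2 (0.18), but in NG2/A2B5 96 of 137 members were lower (median -0.14), where the median of all genes was 0.07. Under quantile normalization the split turned to 51 higher and 86 lower (median -0.05, against 0.02 over all genes). No member was called (limma, lowest adjusted p = 0.0895), against 0.0904% of all genes called higher and 0.140% lower, and 10 members had an unadjusted p under 0.05 (7.30%, against 17.2% of all genes). Arrays of II lay above those of I without overlap for 14 members (10.2%, against 14.9% of all genes) and below for 2 (1.46%, against 6.83%). Between III and I, 60 were higher and 77 lower (median -0.02, against 0.02). In O4 88 of 136 were higher (median 0.13) and in NG2/A2B5 112 of 137 lower (median -0.24). Leaving out single arrays moved the median between -0.13 (without O4 numeral III) and 0.07 (without NG2/A2B5 numeral I). Again none was called (limma, lowest adjusted p = 0.169) where 0% of all genes were called in either direction. There, 16 members had an unadjusted p under 0.05 (11.7%, against 12.6%), and arrays of III lay above those of I for 7 (5.11%, against 10.3% of all genes) and below for 16 (11.7%, against 8.20%).

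Numeral III against II was the comparison with called members. Of 137 members, 3 were called lower in III (2.19%, against 1.89% of all genes) and none higher (1.59% of all genes), a share near that of all genes. They were Ndufaf4, Cycs and Mrps18b. At an unadjusted p under 0.05 there were 20 members (14.6%, against 23.6% of all genes). All 3 arrays of numeral III lay below all 3 of numeral II for 29 members (21.2%, against 16.1% of all genes) and above for none (10.5% of all genes). Within every population, 58 of 136 members were lower in III (42.6%, against 27.6% of all genes) and 7 higher (18.7% of all genes).

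Cycs encodes cytochrome c, the soluble carrier of electrons from complex III to complex IV. Its log2 intensity was 6.15, 6.07 and 6.59 on the numeral II arrays of O4, NG2/A2B5 and NG2, and 5.25, 5.03 and 5.01 on the numeral III arrays. On the numeral I arrays it was 5.69, 5.70 and 5.56, between the others in every population. Cycs fell by 1.17 on the log2 scale from II to III (SE 0.18, 95% interval -1.62 to -0.73; 2.25-fold; adjusted p = 0.0418, limma).

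Ndufaf4, an assembly factor that helps to build complex I, read -0.35, -0.21 and -0.14 on the numeral II arrays in the same order, -0.87, -0.45 and -0.27 on I, and -1.90, -1.35 and -1.24 on III. Numeral III stood apart from both others. The probe read under the array median on every array, and on that of O4 numeral III close to the 25th percentile, so sizes are uncertain. The difference of III minus II was -1.265 (95% interval -1.60 to -0.93; 2.40-fold; adjusted p = 0.0243, limma), and that of III minus I was -0.97 (adjusted p = 0.169, limma).

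Mrps18b, a small-subunit protein, read 4.15, 3.72 and 4.20 on numeral II, 3.44, 3.39 and 3.14 on I and 3.24, 2.96 and 2.94 on III. Here numeral II stood apart, and I and III overlapped. It fell by 0.97 from II to III (95% interval -1.38 to -0.56; 1.96-fold; adjusted p = 0.0472, limma).

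These calls rest on all 9 arrays. Leaving out any single array gave 0 called members, with adjusted p between 0.0638 and 0.121 for Ndufaf4, 0.0778 and 0.163 for Cycs, and 0.0770 and 0.172 for Mrps18b (limma). Their differences then stayed between -1.35 and -1.14, -1.28 and -0.97, and -1.12 and -0.81. The loss of calls was general. Over all genes 193 were called higher and 230 lower with 9 arrays, and at most 4 and 1 with any single array left out.

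Cox6b2 went the other way without passing the test. Its log2 intensity was 3.66, 4.34 and 3.28 on the numeral II arrays, 4.72, 5.18 and 4.22 on I and 4.71, 4.82 and 4.30 on III. It was higher in III than in II within each population, by 0.85 in the model (adjusted p = 0.0522, limma), and the arrays of the numerals overlapped only across populations. Cisd3 had another pattern, with numeral I above both others in each population: III minus I was -1.42 (adjusted p = 0.219) and II minus I was -1.33 (adjusted p = 0.0979, limma).

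**Figure D3:**
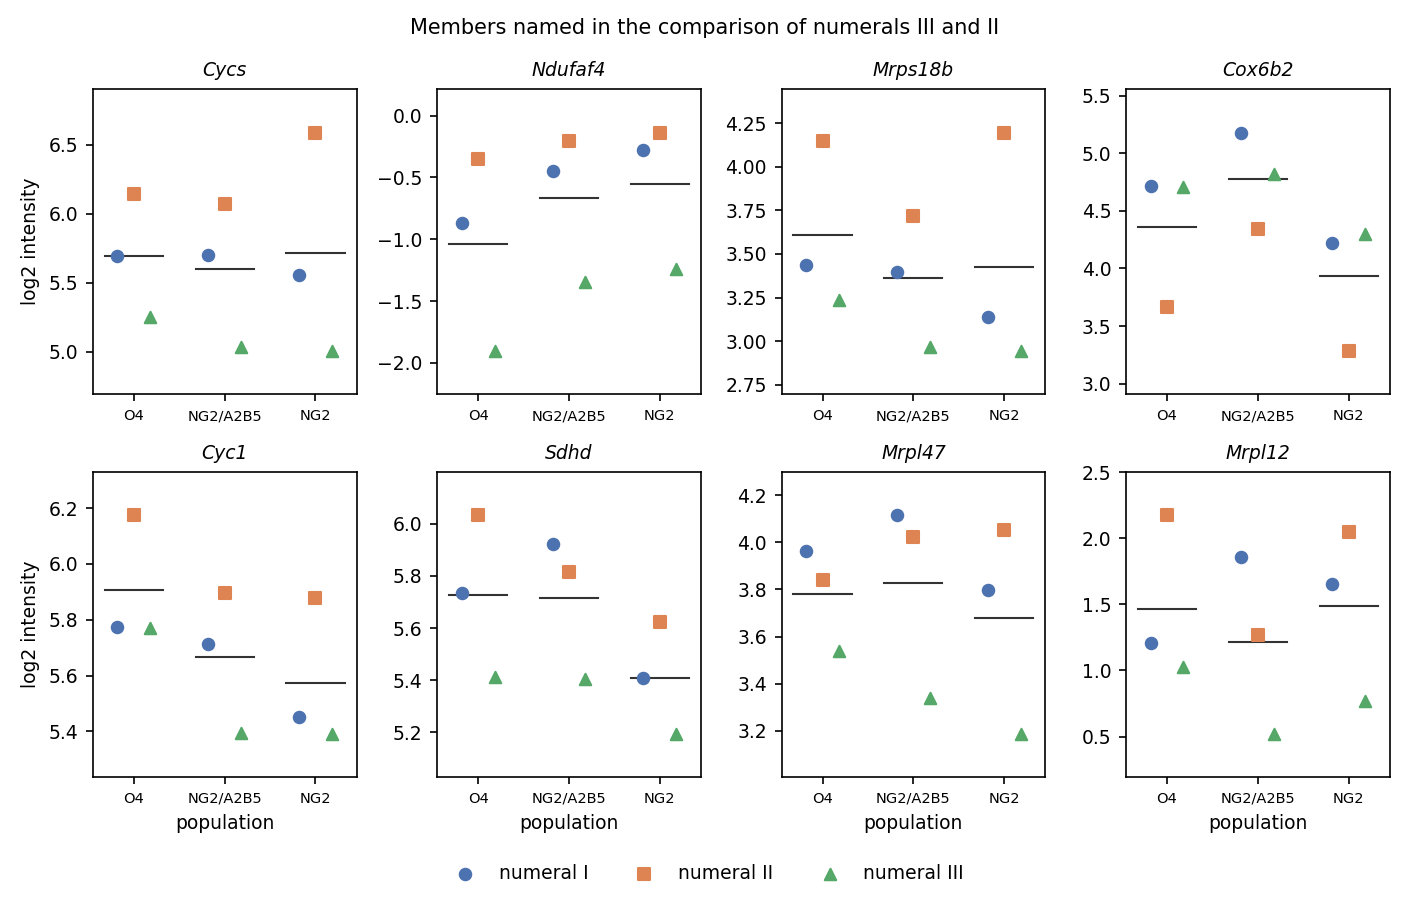
Log2 intensity of 8 members by population, with 1 point for each array, the numeral as symbol, and a line at the mean of the 3 arrays. For Cycs, Ndufaf4 and Mrps18b the numeral III arrays lie below the numeral II arrays in all 3 populations, and for Cox6b2 above.

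The classes differed in how many members were lower in III. In the mitoribosome 49 of 59 members were lower (median -0.23 on the log2 scale, against -0.08 over all genes), with 28 of 36 in the large and 21 of 23 in the small subunit. The cytosolic ribosomal protein genes had a like share, 46 of 54 lower (85.2%, median -0.24). In the respiratory chain 52 of 74 were lower (median -0.10). ATP synthase had 13 of 14 lower (median -0.24) and the complex I assembly factors 6 of 6 (median -0.33), but complex I itself 17 of 28 (median -0.01) and complex IV 7 of 13 (median -0.04). Subunits of the first and the fourth complex thus showed little shift, while the 6 assembly factors with Ndufaf symbols were all nominally lower. In the separate list of other assembly factors, 17 of 29 were lower (median -0.07). Under quantile normalization the respiratory chain turned to 39 higher and 35 lower (median 0.01), complex I to 19 higher and 9 lower, and complex IV to 9 higher and 4 lower. In the mitoribosome 40 of 59 were then lower (median -0.12), in ATP synthase 9 of 14 (median -0.05, against -0.04 over all genes), and of the assembly factors 6 of 6 (median -0.29).

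The shift was widest within NG2 cells. Within NG2, 123 of 137 members were lower in III than in II (89.8%, median -0.40, against 61.9% and -0.18 over all genes). Within NG2/A2B5 it was 86 of 137 (62.8%, median -0.07, against 53.6% and -0.04 over all genes). Within O4 it was 71 of 136 (52.2%, median -0.01, against 50.4% and -0.01 over all genes). In O4, complex I and complex IV had medians of 0.11 and 0.14, the other direction. Without the array of NG2 numeral II the mitoribosome kept a median of -0.09 with 39 of 59 lower, and the respiratory chain had 0.02 with 35 of 74 lower. The median over all genes was then -0.03. With 1 array for each population and numeral, a difference between populations in this shift could not be tested. Cycs, Ndufaf4 and Mrps18b were lower in III within each population.

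**Figure D4:**
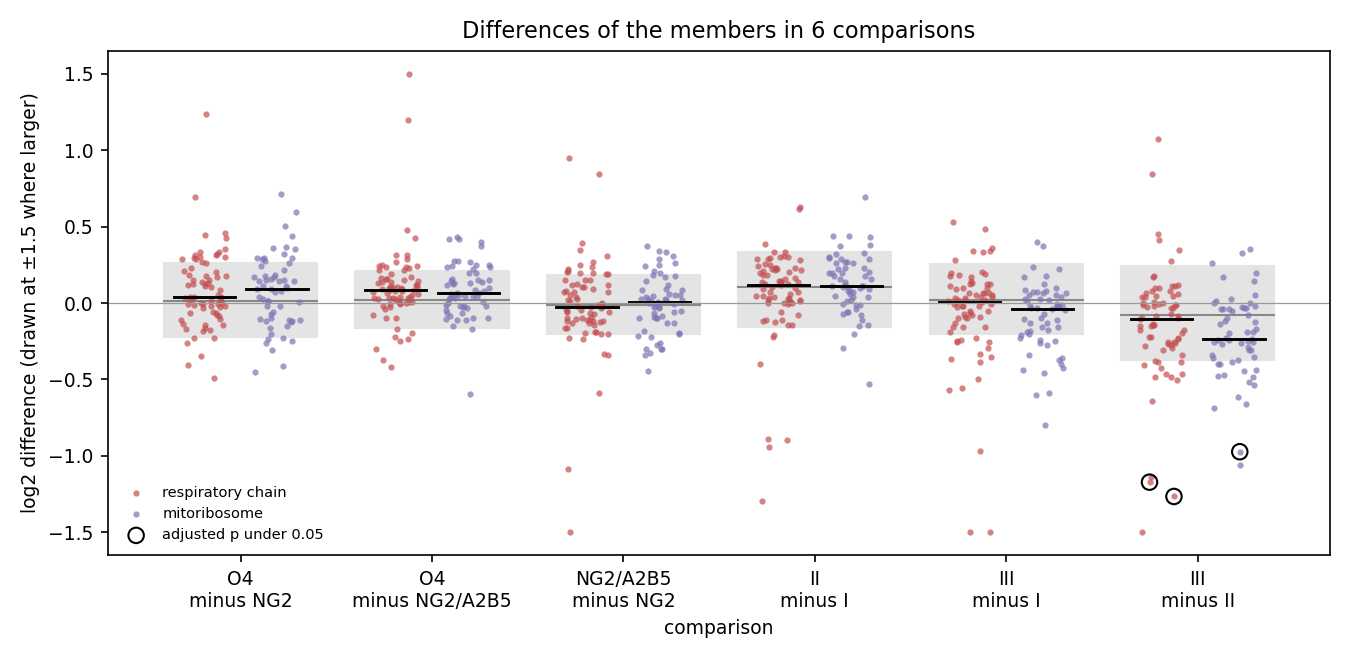
Log2 differences of the 74 respiratory chain and 59 mitoribosome members in 6 comparisons, 1 point a gene, with black lines at the class medians and grey boxes and lines for the quartiles and median of all genes. The 5 points beyond 1.5 are drawn at 1.5, and circles mark the 3 members with an adjusted p under 0.05, all in III minus II.

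Other members with low numeral III values did not pass the test. Cyc1, the cytochrome c1 subunit of complex III, read 6.17, 5.90 and 5.88 on numeral II against 5.77, 5.39 and 5.39 on III (difference -0.46; adjusted p = 0.0948, limma). Mrpl47 read 3.84, 4.02 and 4.05 against 3.54, 3.34 and 3.19 (difference -0.62; adjusted p = 0.0894, limma). Mrps15 read 2.27, 2.23 and 2.83 against 1.87, 1.62 and 1.78 (difference -0.68; adjusted p = 0.115, limma). In each of these the arrays of the numerals did not overlap. Of complex II, Sdhd read 6.03, 5.81 and 5.62 on numeral II against 5.41, 5.40 and 5.20 on III (difference -0.49; adjusted p = 0.103, limma), while Sdhb stayed between 7.22 and 7.58 and Sdhc between 5.51 and 6.14 with overlapping numerals. Higher in III than in I were Ndufa1 of complex I, by 0.53 (adjusted p = 0.326, limma), and Ndufs4, by 0.36 (adjusted p = 0.369, limma). The latter is a difference of -0.27 when its 2 probes are averaged, the second of which read at or over the 25th percentile on 2 arrays only.

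Genes that work with the module were read from lists of other mitochondrial pathways. Beside these lists, 56.9% of all genes were lower in III minus II (median -0.08), with 1.59% called higher and 1.89% called lower. In III minus II, protein import had 17 of 18 measured genes lower (median -0.45), with Timm23, the channel of the inner membrane translocase, called. Timm23 read 3.57, 3.53 and 3.86 on numeral II against 2.81, 2.64 and 2.40 on III and fell by 1.03 (adjusted p = 0.0469, limma). Among 14 regulators of mitochondrial biogenesis 10 were lower (median -0.13), and Pprc1, a coactivator of the PGC-1 family that works with NRF1, fell by 1.15 (adjusted p = 0.0303, limma). Pprc1 read 3.44, 3.95 and 4.30 on numeral II against 2.59, 2.71 and 2.93 on III. Of 11 coenzyme Q genes 5 were lower (median 0.13), and Coq8a, an atypical kinase needed for coenzyme Q synthesis, rose by 1.47 (adjusted p = 0.0228, limma). Of the tricarboxylic acid cycle 9 of 12 were lower (median -0.39), of carriers and porins 9 of 11 (-0.26), of fusion, fission and cristae genes 13 of 16 (-0.24), of other assembly factors 17 of 29 (-0.07), and of mitochondrial translation factors 6 of 9 (-0.10), with none called in these lists.

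Glycolysis, which makes ATP without the chain, had 12 of 16 genes lower in III (median -0.45). Hk2, a hexokinase that docks on mitochondria, read 2.53, 2.50 and 2.36 on numeral II against 0.23, -0.04 and -1.92 on III and fell by 3.04 (adjusted p = 0.0341, limma). Pgam1 fell by 0.91 (adjusted p = 0.0373) and Aldoc, the brain aldolase, rose by 1.27 (adjusted p = 0.0284, limma). In the other 5 comparisons none of the genes in these lists was called (limma). With any single array left out, at most 4 genes of the whole series were called higher and 1 lower in III minus II.

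Sdha, the catalytic subunit of complex II, was read by 16 probes. Their numbers form 4 series of 4 probes, each spaced by 82000, and the sources at hand do not say what the series are. The series differed in level, with mean log2 intensities of 2.10, 2.84, -1.24 and -0.11 (called A to D). Within a series the probes of an array had a median SD of 0.10, 0.09, 0.34 and 0.25, so the 2 brighter series repeated well. These 2 did not move alike. Series A averaged 2.34 ± 0.30 on numeral I, 2.13 ± 0.26 on II and 1.83 ± 0.16 on III (SD, n = 3), and its 4 probes gave III minus I differences from -0.66 to -0.40, with adjusted p of 0.313 or more over all probes (limma). Series B averaged 2.76 ± 0.18, 2.90 ± 0.21 and 2.86 ± 0.06, with III minus I from -0.01 to 0.18. A statement on Sdha therefore depends on the probe, and the probe that stands for it in the model is of series B.

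**Figure D5:**
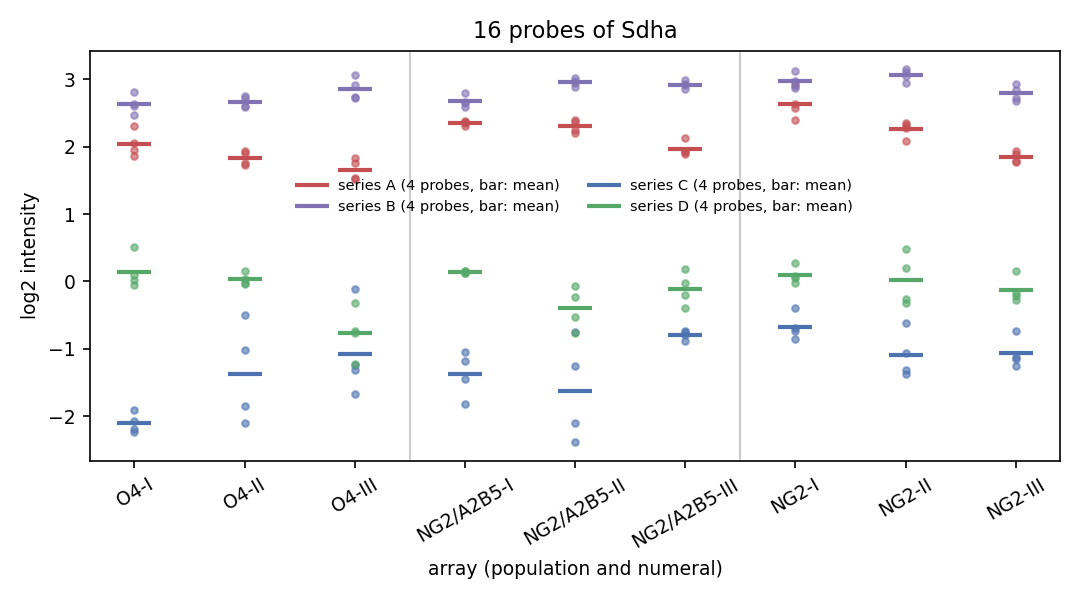
Log2 intensity of the 16 Sdha probes on each array, coloured by series, with a bar at the mean of the 4 probes of a series. Series A lies lower on numeral III than on numeral I in every population, and series B only in NG2.

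Another 13 members had 2 probes each. In III minus II the probes gave opposite signs for Atp5mpl, Cox8a, Mrpl40, Mrpl57, Mrps9 and Ndufs7. For Mrpl57 the differences were 0.33 and -0.31 at similar levels, so its direction is unsettled. They had the same sign for the other 7, with -0.64 and -0.61 for Cisd2 and -0.52 and -0.79 for Mrps27.

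The labelled cell type was checked against its markers. Olig1, Sox10, Cspg4, Cnp, Bcas1, Cd9 and Mag read over the array median on all 9 arrays, while Pdgfra, Mbp and Mog read under the 25th percentile on some array. The summed intensity of the 11 measured lineage markers moved with the numeral: it was 658 to 811 on I, 607 to 691 on II and 930 to 934 on III. By gene the split was mixed, with 7 higher and 4 lower in III minus II (median 0.46). The summed intensity of 7 astrocyte markers was 61.5 to 70.8, 48.3 to 81.5 and 82.1 to 107, with Gfap, Slc1a2 and Gjb6 under the 25th percentile on some array. Of these 7 genes, 4 were higher and 3 lower in III minus II (median 0.16). Over 12 microglial markers the sum spanned 8.54 to 11.6 for O4, 6.36 to 7.85 for NG2/A2B5 and 6.68 to 7.58 for NG2, with 9 of 12 under the 25th percentile on some array. Neuronal (6 measured), endothelial (5) and fibroblast or pericyte markers (7) overlapped between populations, at 7.73 to 17.3, 5.67 to 8.16 and 21.8 to 33.6. By numeral, the fibroblast and pericyte sum was 21.75 to 23.25 on I, 26.79 to 33.56 on II and 23.34 to 27.67 on III, with 6 of 7 genes lower in III minus II (median -0.49) and Dcn, Lum, Pdgfrb and Rgs5 under the 25th percentile on some array. The part of these markers, and of the array of NG2 numeral II, in the differences by numeral and population was not tested, and fewer cells of a type and less RNA in each cell cannot be told apart.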

How the data were processed

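Total RNA of 9 sorted samples was amplified in 2 rounds, labelled with a single dye and read on arrays, and spiked controls served normalization, per the labels. The deposited values are scaled intensities on a linear scale. Scanner and scaling software: not given in the sources used here. Values coded -9999 were treated as missing, and values at or below 0 were set to the smallest positive value of their array before taking log2. Where a gene had several probes, the brightest on average over the 9 arrays stood for it. Symbols were those of the probe annotation, matched to RefSeq by Entrez identifier for 16836 probes.

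Populations were compared with limma 3.58.1 in R 4.3.3 (lmFit and eBayes, two-sided, 6 residual degrees of freedom), and numerals with population as an added term (4 residual degrees of freedom). P-values were adjusted by Benjamini-Hochberg over all genes, and a gene was called at an adjusted p under 0.05. Intervals are 95% intervals. Precision is limited by the number of arrays. The members and lists were chosen with earlier results of these data known, so class counts and medians have no p and are set beside those of all genes.

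Genes are named by a rule: all called members, the 3 members per direction and class with the smallest p in each comparison (printed in part), the CISD proteins, Opa3, cytochromes c and c1, complex II and the complex IV isoforms, and in each other list the called genes. Cox8c, Ndufa13, Mrps2, Ndufaf8 and genes with disagreeing probes were named after their values were seen.

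Numerals were tested as pairs by correlating deviations from population means over 7160 genes. The 9 pairs of arrays with the same numeral correlated at 0.25 to 0.70 and the 18 others at -0.62 to 0.09. By this measure the numerals pair the arrays, on the data and not the labels. The alternatives were quantile normalization, centred medians, a floor at the 25th percentile, low genes left out, the mean of the probes, every probe, trended and robust variances (statmod 1.5.0), the numeral as a fixed or random replicate block, only the 6 arrays compared, no population term, each array left out, and 2 combinations added after the data were seen. The model code was run on simulated data with planted differences and noise independent between arrays. That run checked only the size of the differences and gives no rate of false calls for arrays paired by numeral. Plots used matplotlib 3.10.9 (Python 3.11.15).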

Additional observations from a re-analysis of the deposited data

How the results depend on the processing

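The count of members called lower in III minus II (3) was 5 with the floor at the 25th percentile and with low genes left out, 1 with the mean of the probes and with every probe, 14 with trended, robust variances, 8 with these and the floor, and 0 without any one of the 9 arrays (range 0 to 0). The count called higher (0) was 1, Cox6b2, with quantile normalization, the floor, low genes left out, trended, robust variances, and these with the floor. In II minus I, members called lower numbered 2, 2, 3 and 2 with the floor, low genes left out, the trended, robust variances, and these with the floor, and members called higher 2 and 1 with the latter 2 settings. In III minus I, 2, 2 and 1 were called lower with the floor, the trended, robust variances, and both. Over all genes these 3 settings called 14 higher and 35 lower, 159 and 153, and 18 and 40, against 0 and 0 in the main fit. With the numeral as a fixed replicate block no member was called between populations (0 in each comparison), and joined with trended, robust variances the block gave 3 called higher in O4 minus NG2 (Cisd3, Mrpl28 and Opa3) and 3 in NG2/A2B5 minus NG2 (Cisd3, Cox6b2 and Opa3). Over all genes the joined setting called 78 higher and 51 lower in O4 minus NG2, and 67 and 28 in NG2/A2B5 minus NG2. The block changed no other member call between populations. The median of the respiratory chain in II minus I was -0.0705 under quantile normalization, against 0.0237 over all genes. Leaving out single arrays gave medians of the mitoribosome from 0.0114 to 0.2592 in II minus I and from -0.3164 to -0.0901 in III minus II, the value nearest 0 in both being that without NG2 numeral II. The difference of Ndufs4 in III minus I was -0.27 with the mean of the probes. The cause was not tested. With 3 arrays a population, small differences in dim probes cannot be resolved. Over all genes, III minus II had 193 higher and 230 lower calls, against 545 and 734 with the floor, 530 and 683 with low genes left out, 66 and 70 with the mean of the probes, 97 and 119 with every probe, and 786 and 1097 with trended, robust variances. With any single array left out it had at most 4 and 1. In II minus I the main fit called 11 higher and 17 lower, against 206 and 198 with the floor and 481 and 355 with trended, robust variances. It was 176 and 186 with low genes left out, and 311 and 242 with the floor and the trended, robust variances.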
